A study of Mus musculus with 12 samples.

Results

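The 12 soleus RNA libraries were divided by their level of Dbp, a transcript whose amount in muscle rises and falls steeply over the day. Libraries were chosen by the measured Dbp count itself: 5 of the 12 held Dbp at 80 CPM or more, and the other 7 held it below that level. CPM is the count of a gene divided by the total count of its column and scaled up to 1000000 counts. Soleus is a slow postural muscle of the lower leg. All mice were C57BL/6 on chow, and the groups were sedentary and exercised animals of a Dnmt3a floxed line, called wild type (WT), and of the MCK-Dnmt3a knockout (KO), in which a muscle creatine kinase (MCK) driver removes the DNA methyltransferase Dnmt3a from muscle fibres. Each of the 4 groups had 3 libraries. The kind and length of exercise and the hour of tissue collection are stated in none of the labels, and the count columns match the labels by group only, so libraries are lettered a to c within a group in column order.

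Dbp was 136 CPM in WT sedentary b, 136 in WT sedentary c, 165 in KO sedentary a, 220 in WT exercise a and 249 in KO exercise a. The 7 low libraries ran from 17.3 CPM in KO exercise c to 26.3 in KO sedentary c. The levels just inside and just outside the 80 CPM boundary were therefore 136 and 26.3 CPM. Every group contributed to both classes, with 2 high libraries in WT sedentary and 1 in each of the other 3 groups. These Dbp values made the classes and are given as a description only. Dbp exons overlap those of Sphk2 on the other strand, and no label says whether the counting used strand. The adjusted p-values below measure how far other genes follow the Dbp class over these 12 libraries, not over a labelled condition or hour.

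**Figure D1:**
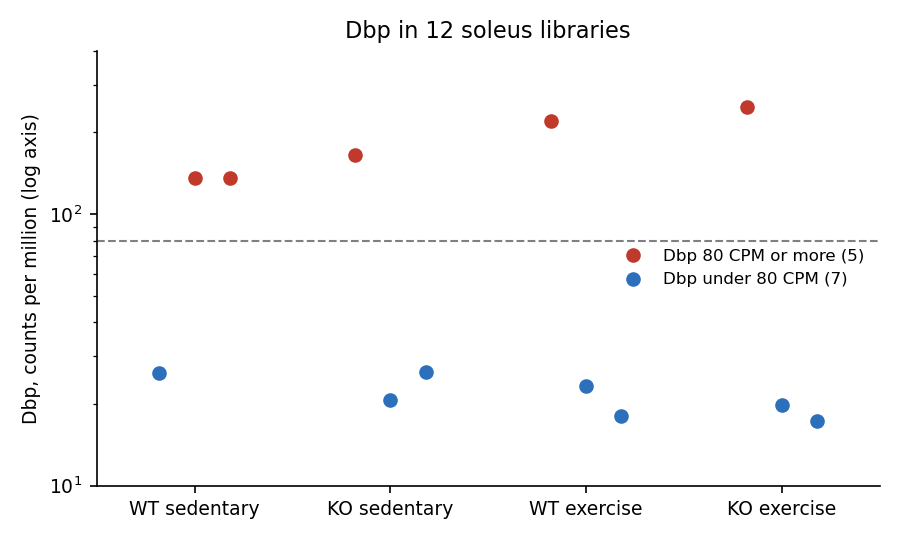
Dbp in each of the 12 libraries, in CPM of the column total on a log axis, by group. The 5 red libraries lie at 136 to 249 CPM and the 7 blue libraries at 17.3 to 26.3 CPM, on either side of the dashed line at 80 CPM.

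Several libraries stood apart before any class was compared. The column names of WT exercise a and KO exercise a carry 2 animal numbers each, from a lower range than the single numbers of the other 10 columns, and these were the only high libraries among the exercised ones. In exercised muscle the Dbp class and this feature of the columns therefore cannot be told apart. KO sedentary b, WT exercise b and WT exercise c, all low, held albumin (Alb) at 329, 227 and 178 CPM, against at most 20.6 in any other library. KO sedentary b also held the fast myosin Myh4 at 5505 CPM, against at most 1741 elsewhere. Total counts were even, from 13329547 to 15480960 per library, and Dnmt3a was 113 to 180 CPM in the 6 WT libraries and 48.6 to 60.5 in the 6 KO libraries. The 9 slow fibre genes that mark soleus, such as Myh7, were present in every library, with a summed level of 30479 to 46118 CPM. The 11 fast fibre genes were present as well, summing to 38572 to 60480 CPM in the high and 45065 to 72433 CPM in the low libraries. The columns do not show that every library came from its own single animal, so the p-values measure the spread between these libraries, which may be partly technical. Levels of genes other than Dbp are CPM scaled by the trimmed mean of M values (TMM).

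The mammalian clock is a loop of transcription factors. BMAL1 (gene Arntl) pairs with CLOCK or NPAS2 on E-box sequences and switches on the Per, Cry, Nr1d1 and Nr1d2 genes and Dbp. PER and CRY proteins then inhibit that pair, while REV-ERB alpha and beta (Nr1d1 and Nr1d2) compete with ROR receptors at RORE sequences and silence Arntl, Npas2, Cry1 and Nfil3. DBP, TEF and HLF activate genes with D-box sequences, where NFIL3 represses. Muscle runs this loop in its own fibres and uses it to time glucose and lipid use.

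Ciart, Per3, Arntl and Cry1 differed between the classes in opposite directions, Arntl without passing the test over all 12 libraries. Their start regions are printed, and all 4 hold a match to an E-box, D-box or RORE sequence. Each holds 250 bases before and 50 after the annotated start, from RefSeq (GRCm38.p6, the assembly also called mm10), read 5′ to 3′ along the gene's strand, with the matched motif in capitals: E-box CACGTG, D-box TTATGTAA, or the RORE. Ciart lies at chr3:95882179-95882478 (minus strand), Per3 at chr4:151044616-151044915 (minus), Arntl at chr7:113207261-113207560 (plus, the downstream of its 2 annotated starts) and Cry1 at chr10:85185005-85185304 (minus).
Ciart: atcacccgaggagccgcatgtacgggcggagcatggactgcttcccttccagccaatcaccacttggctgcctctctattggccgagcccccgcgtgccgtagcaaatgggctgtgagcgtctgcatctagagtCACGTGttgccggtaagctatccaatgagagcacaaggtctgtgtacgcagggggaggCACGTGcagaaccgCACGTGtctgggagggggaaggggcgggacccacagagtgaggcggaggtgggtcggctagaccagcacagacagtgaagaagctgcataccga
Per3: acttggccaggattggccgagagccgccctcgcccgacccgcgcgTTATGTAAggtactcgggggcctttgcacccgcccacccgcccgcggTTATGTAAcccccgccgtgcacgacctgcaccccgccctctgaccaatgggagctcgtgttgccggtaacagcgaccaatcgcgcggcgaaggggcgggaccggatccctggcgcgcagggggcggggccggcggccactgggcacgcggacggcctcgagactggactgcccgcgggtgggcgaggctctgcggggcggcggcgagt
Arntl: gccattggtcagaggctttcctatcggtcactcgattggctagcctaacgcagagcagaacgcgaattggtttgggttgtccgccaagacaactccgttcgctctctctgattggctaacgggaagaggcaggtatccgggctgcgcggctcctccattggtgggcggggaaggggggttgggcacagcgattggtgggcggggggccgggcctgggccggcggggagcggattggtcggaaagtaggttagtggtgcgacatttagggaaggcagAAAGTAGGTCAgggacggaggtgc
Cry1: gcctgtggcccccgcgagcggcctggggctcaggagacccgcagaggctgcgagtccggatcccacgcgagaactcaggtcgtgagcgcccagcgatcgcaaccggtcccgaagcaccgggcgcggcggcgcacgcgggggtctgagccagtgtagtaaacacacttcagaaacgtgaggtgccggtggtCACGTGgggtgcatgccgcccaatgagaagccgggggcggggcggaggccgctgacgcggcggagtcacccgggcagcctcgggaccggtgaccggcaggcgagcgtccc
Ciart held 3 E-boxes, Per3 held 2 D-boxes, Arntl held 1 RORE just after its start and Cry1 held 1 E-box. Searched on both strands, an E-box was present in 7.15% of all 32851 RefSeq start regions of this length, a D-box in 0.938% and a RORE in 0.384%. Of 33 clock genes including Dbp, 27 had a start region in the table, and 7 of them held an E-box, 2 a D-box and 1 a RORE. Bhlhe41, Tef and Per1 also held an E-box. The start regions of Nr1d1, Nr1d2, Npas2, Nfil3, Clock, Hlf and Dbp held no match to any of these motifs. Among named genes called in the class contrast, an E-box lay in 5 of 23 higher and 4 of 16 lower genes with a start region. In these counts a gene with several start regions was included if any of them matched. The shares over all RefSeq are per start region, so counts and shares are not in the same unit. A match describes letters in this window and is not evidence of binding.

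Across all genes, the class contrast (edgeR quasi-likelihood, groups as covariate, Benjamini-Hochberg adjustment over 13885 genes without Dbp) called 212 genes at an adjusted p under 0.05, or 1.53% of those tested. Of these, 111 were higher in the high-Dbp libraries (0.799%) and 101 were lower (0.727%). The called differences were mostly moderate, with a median size of 0.57 on the log2 scale, and 31 exceeded 1. The high library or libraries lay on the same side of the low ones within each of the 4 groups for 205 of the 212 genes. Over all tested genes, 4.49% lay above and 4.4% below in every group. The class term was fitted with the groups as covariate in these same libraries. This separation therefore largely follows from the call and is a description only. The count fell to 45 without KO exercise a, 102 without WT sedentary a, 94 without the 3 libraries with high Alb, and 77 without both columns that carry 2 animal numbers.

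Of 32 listed clock genes other than Dbp, 30 were tested; Rorb and Fbxl21 were too low. The test called 10 of them, 7 higher and 3 lower, where it called 1.53% of all tested genes. The 5 high libraries did not overlap the 7 low libraries for 9 of the 30, where 2.06% of all tested genes did not overlap. In 5 of these 9 the high libraries were above (1.08% of all genes) and in 4 below (0.979%). Of the 10 called clock genes, 4 remained called without KO exercise a (Bhlhe41, Ciart, Cry1 and Nr1d2), 5 without the columns that carry 2 animal numbers (Bhlhe41, Cry1, Npas2, Nr1d2 and Per3) and 5 without the libraries with high Alb (Bhlhe41, Cry1, Nfil3, Npas2 and Nr1d2).

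Of 6 tested genes of the activating arm, 1 passed the joint test, and it was lower in high-Dbp muscle, where 0.727% of all tested genes were lower. This gene was Npas2, the CLOCK-like partner of BMAL1, at 3.10 CPM in WT sedentary b, 2.41 in WT sedentary c, 3.52 in KO sedentary a, 0.40 in WT exercise a and 1.17 in KO exercise a. The 7 low libraries lay between 6.83 and 11.6 CPM with a median of 9.32. All high libraries were thus below all low ones. The fitted difference was -2.29 ± 0.37 on the log2 scale (SE; edgeR adjusted p = 0.0152), and it was not called without KO exercise a.

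Arntl, the gene of BMAL1 itself, was 33.9, 34.7 and 31.6 CPM in WT sedentary b, WT sedentary c and KO sedentary a, and 7.65 and 12.6 CPM in WT exercise a and KO exercise a. The low libraries held 54.6 to 76.5 CPM, with a median of 59.5. The classes did not overlap, but the high class itself divided by condition, and the joint difference of -1.67 ± 0.39 (SE) missed the threshold (edgeR adjusted p = 0.0874). Fitted apart, Arntl was called lower in the sedentary libraries (log2 difference -0.78 ± 0.091, edgeR adjusted p = 0.0121) and in the exercised libraries (-2.81 ± 0.17, adjusted p = 0.000308). Clock, the usual partner of BMAL1, showed a smaller difference of -0.46 ± 0.11 (adjusted p = 0.0551) without overlap, at 35.2 to 57.9 CPM in the high and 58.2 to 72.0 CPM in the low libraries. Rora, a ROR receptor that activates Arntl, differed by 0.16 (adjusted p = 0.452) and the BMAL1 relative Arntl2 by -0.02 (0.973).

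Of 10 tested repressors of the loop, 6 were called higher and 1 lower, where 0.799% and 0.727% of all tested genes were. Both REV-ERB genes were among the higher ones. Nr1d2 was 122, 103 and 110 CPM in WT sedentary b, WT sedentary c and KO sedentary a, and 166 and 159 CPM in WT exercise a and KO exercise a. The low libraries were tight, at 47.3 to 62.1 CPM with a median of 51.6. The difference was 1.35 ± 0.092 on the log2 scale (SE; edgeR adjusted p = 5.1e-05), and Nr1d2 remained called in each of the 23 alternative fits, including WT libraries alone (1.34) and KO libraries alone (1.36). Nr1d1 was more variable among the high libraries, at 342, 560, 415, 161 and 279 CPM in the same order, against 49.7 to 127 CPM in the low ones. Its difference of 2.01 ± 0.33 passed the test (edgeR adjusted p = 0.0256) but did so in only 6 of the 12 fits that each left out a library. Its exons overlap those of Thra on the other strand, and no label says whether the counting used strand.

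**Figure D2:**
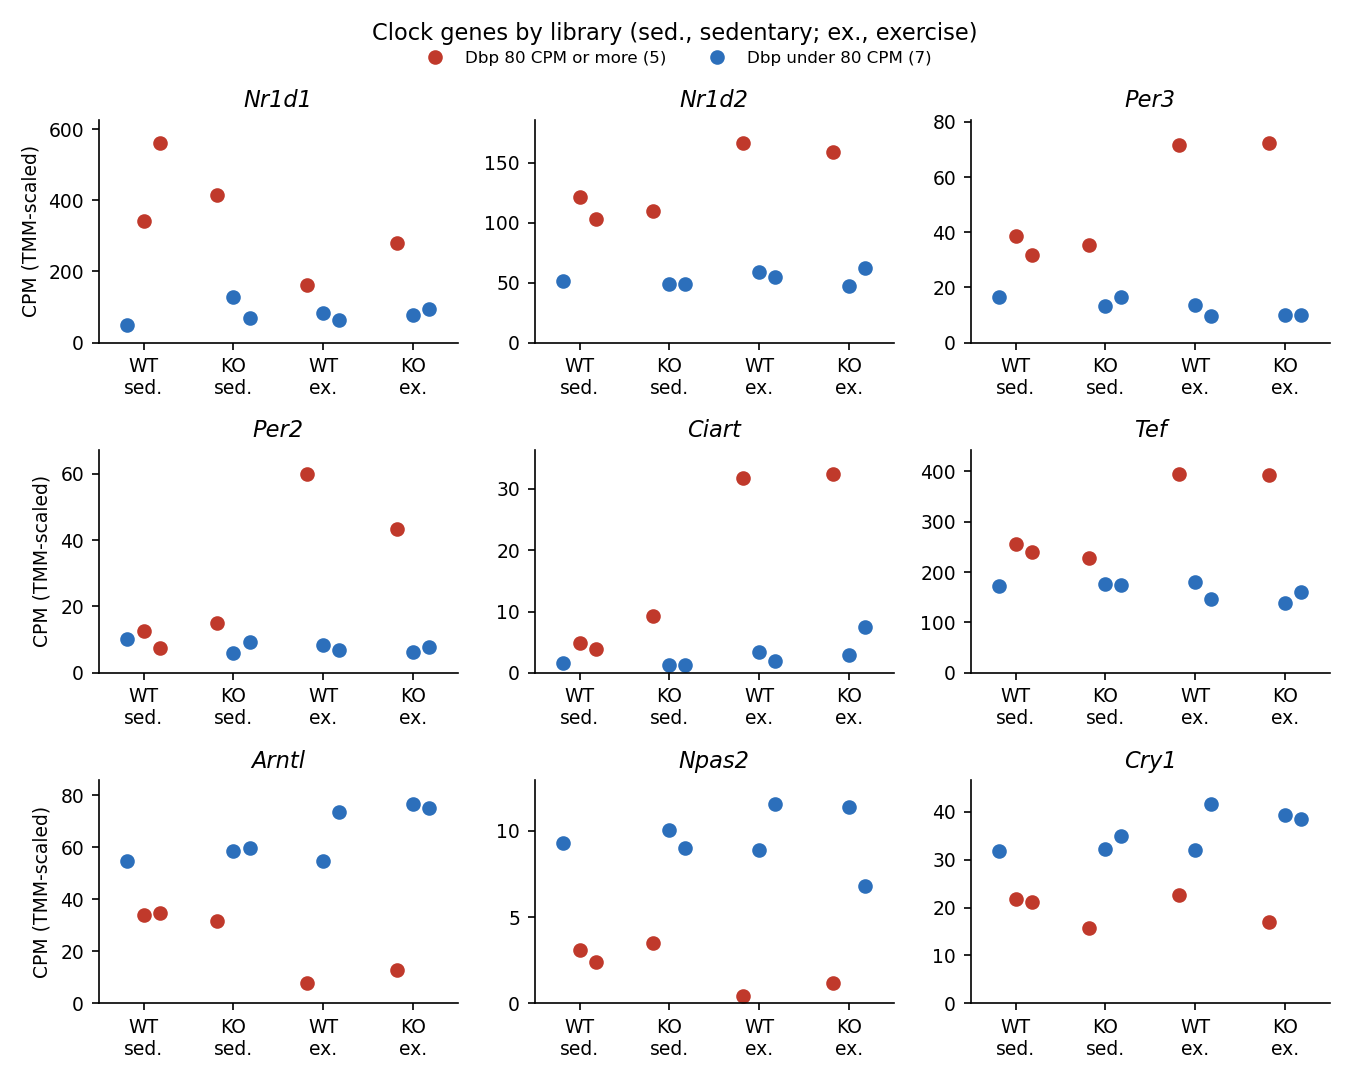
Level of 9 clock genes in each library, in TMM-scaled CPM, by group; red points are the 5 high-Dbp and blue points the 7 low-Dbp libraries. Nr1d2 and Per3 are higher and Arntl, Npas2 and Cry1 lower in every red library, and Per2, Ciart and Tef stand highest in the red exercised libraries.

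Among the period genes, whose proteins inhibit the activators, Per3 was called and Per1 and Per2 were not. Per3 was 38.7, 31.7 and 35.3 CPM in WT sedentary b, WT sedentary c and KO sedentary a, and 71.8 and 72.2 CPM in WT exercise a and KO exercise a, against 9.69 to 16.5 CPM in the low libraries. The classes were separate, and the difference of 1.98 ± 0.28 (SE) was called (edgeR adjusted p = 0.0147), though not without either exercised high library. Per2 reached 59.96 CPM in WT exercise a and 43.4 in KO exercise a, but 12.6, 7.63 and 14.96 CPM in the sedentary high libraries, where it overlapped the low range of 5.85 to 10.1 CPM. Its joint difference of 1.74 ± 0.45 was not called (adjusted p = 0.113). Per1 ranged from 41.2 to 294 CPM in the high and from 23.1 to 188 CPM in the low libraries, which overlapped widely (1.46 ± 0.35, adjusted p = 0.0973), although the high libraries lay above the low ones within all 4 groups.

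Ciart, which encodes the BMAL1-binding repressor CHRONO, had the largest called rise. It was 4.81, 3.82 and 9.24 CPM in WT sedentary b, WT sedentary c and KO sedentary a and 31.8 and 32.5 CPM in WT exercise a and KO exercise a. The low libraries held 1.22 to 7.55 CPM with a median of 1.87, so the classes overlapped across groups but not within any group. The difference was 2.76 ± 0.32 on the log2 scale (SE; edgeR adjusted p = 0.0041). Bhlhe41, encoding the E-box repressor DEC2, rose by 1.27 ± 0.14 (adjusted p = 0.0024), from 23.4 to 38.5 CPM in the low to 52.3 to 80.5 CPM in the high libraries. Its paralogue Bhlhe40 was not called (0.21 ± 0.099, adjusted p = 0.305).

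The cryptochromes, which inhibit the activators together with PER proteins, were called in opposite directions. Cry1 was 21.8, 21.2 and 15.7 CPM in WT sedentary b, WT sedentary c and KO sedentary a and 22.6 and 16.9 CPM in WT exercise a and KO exercise a. The low libraries held 31.9 to 41.7 CPM with a median of 34.98, above every high library, and the difference was -0.89 ± 0.11 (SE; edgeR adjusted p = 0.0025). Cry2, whose exons overlap those of D930015M05Rik on the other strand, was higher by 0.71 ± 0.12 (edgeR adjusted p = 0.0158), at 48.1 to 83.4 CPM against 31.6 to 48.5. Cry1 kept its call in all 12 fits that left out a library, whereas Cry2 lost it without WT exercise a and without KO exercise a.

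Of the factors that act on D-boxes besides DBP, Tef was called higher and Nfil3 lower. Tef was 256, 240 and 229 CPM in WT sedentary b, WT sedentary c and KO sedentary a and 395 and 393 CPM in WT exercise a and KO exercise a, all above the low range of 139 to 181 CPM (0.91 ± 0.15, edgeR adjusted p = 0.0177). Hlf stood apart only in the exercised high libraries, at 39.8 and 36.5 CPM, while the sedentary high libraries at 15.4 to 19.0 CPM overlapped the low range of 11.4 to 16.7 (0.87 ± 0.23, adjusted p = 0.102). Nfil3 was 17.8, 11.5 and 12.8 CPM in the sedentary high libraries and 88.7 and 47.4 CPM in WT exercise a and KO exercise a. The low libraries spread from 44.5 to 231 CPM with a median of 134, so the classes overlapped, but within every group the high libraries were the lower ones (-1.72 ± 0.27, adjusted p = 0.0183). Tef lost its call without WT exercise a or KO exercise a, and Nfil3 without KO exercise a or WT sedentary a.

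None of the 11 tested genes that modify or degrade clock proteins was called, and 0 of them lay without overlap. Over all tested genes 1.53% were called and 2.06% lay without overlap, so 0 of 11 is near these shares. Usp2, a deubiquitinase of clock proteins with rhythmic expression, had the largest difference of them (0.60 ± 0.17, adjusted p = 0.127). The other 10, among them the casein kinases Csnk1d and Csnk1e and the kinase Gsk3b, lay between -0.11 and 0.22.

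A ratio within a library does not depend on its depth. The ratio of Nr1d2 to Arntl counts was 3.59 in WT sedentary b, 2.96 in WT sedentary c, 3.48 in KO sedentary a, 21.7 in WT exercise a and 12.6 in KO exercise a. The 7 low libraries lay between 0.618 and 1.07. The high libraries thus formed a sedentary trio close to each other and a higher exercised pair, while the low libraries of both conditions lay together. Nr1d2 and Arntl had each separated the classes without overlap and in opposite directions. Their ratio therefore had to separate the classes too and is no further evidence.

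The sedentary and exercised libraries share no sample, so each condition gives its own estimate of the class difference. In the 6 sedentary libraries 103 genes were called (0.759% of 13574 tested; 0.346% higher and 0.413% lower), 7 of them clock genes: Arntl, Npas2, Ciart, Per3, Nr1d2, Bhlhe41 and Cry1. In the 6 exercised libraries 297 genes were called (2.25% of 13212; 1.4% higher and 0.848% lower), 14 of them clock genes. The sedentary count fell to 0 without KO sedentary a, to 29 without WT sedentary c and to 44 without WT sedentary a, and the exercised count fell to 25 without WT exercise a and to 115 without KO exercise a and rose to 524 without KO exercise c. Of 102 genes called in sedentary muscle and tested in both conditions, 77 (75.5%) had the same direction in exercised muscle, against 55.8% of all 13146 genes tested in both. Of these 102, 22 (21.6%) were called there in the same direction, where 2.26% of all these genes were called. Read the other way, 194 of the 297 genes called in exercised muscle (65.3%) had the same direction in sedentary muscle, beside the same 55.8%. The 22 were 7.41% of the 297 genes called in exercised muscle, where 0.776% of all genes were called in sedentary muscle.

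The 22 genes called alike in both conditions, 10 higher and 12 lower, included clock genes and others. Per3, Nr1d2 and Bhlhe41 were higher and Arntl, Npas2 and Cry1 lower. The further higher genes were Tspan4 (a tetraspanin membrane protein), Klf9 (a zinc-finger transcription factor under clock and glucocorticoid control), Galnt15 (a glycosyltransferase), Tmem86a (a lysoplasmalogenase), Slc19a2 (a thiamine transporter), Dedd2 (a death-effector-domain protein) and 1810013L24Rik. Tspan4 was 17.8 to 24.9 CPM in the high against 8.34 to 11.7 CPM in the low libraries, with log2 differences of 0.94 (edgeR adjusted p = 0.0175) in sedentary and 1.33 (0.00087) in exercised muscle. Its exons overlap those of Chid1 on the other strand.

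Among the genes lower in both conditions, Dyrk2 and Lrrc30 differed most evenly. Dyrk2, a protein kinase, was 13.7, 10.6 and 10.6 CPM in WT sedentary b, WT sedentary c and KO sedentary a and 10.7 and 12.1 CPM in WT exercise a and KO exercise a, below the whole low range of 25.4 to 32.4 CPM. Its difference was -1.38 ± 0.13 in sedentary and -1.33 ± 0.14 in exercised muscle (edgeR adjusted p = 0.0056 and 0.0014), and it was called in all 23 alternatives of the joint fit. Lrrc30, a leucine-rich repeat protein, was 36.7 to 58.7 CPM against 92.2 to 143 CPM, with differences of -1.42 and -1.41 (adjusted p = 0.0056 and 0.0078), and was also called in all 23. Also lower in both were the glucocorticoid receptor Nr3c1, the metalloproteinase Mmp15, the mitochondrial carrier Slc25a36, the zinc-finger gene Zfp462 and Tmem171.

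Some class differences depended on the condition. The interaction of class with exercise called 83 genes (0.598%; 0.338% with a larger and 0.259% with a smaller value in exercised muscle), 5 of them clock genes, and the count fell to 1 without KO sedentary a and to 4 without WT exercise a. For Per2 the class difference was 0.52 ± 0.31 in sedentary and 2.81 ± 0.13 in exercised muscle (interaction 2.30 ± 0.38, edgeR adjusted p = 0.0399). For Per3 it was 1.18 and 2.73 (interaction adjusted p = 0.0073), for Tef 0.46 and 1.32 (0.0211), for Hlf 0.20 and 1.47 (0.0163) and for Arntl -0.78 and -2.81 (0.0032). All 5 were thus larger in exercised muscle, where the high class consists of the columns with 2 animal numbers, and the part of that feature was not tested. The Arntl interaction was called in all 17 alternatives that could be run, the Per2 interaction in 6 of 17.

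In both conditions, but with opposite signs, 4 genes were called: Armc2, Slc25a22, Cntfr and Rell1. Slc25a22, a mitochondrial glutamate carrier, was 98.5, 153 and 112 CPM in the sedentary high libraries but 39.3 and 31.6 CPM in the exercised ones, against 42.9 to 86.3 CPM in the low libraries. Cntfr, a receptor for ciliary neurotrophic factor, went the other way, at 6.16 to 8.24 CPM in the sedentary high libraries and 19.4 and 12.5 CPM in the exercised ones. The low libraries held 8.34 to 18.3 CPM of Cntfr, so the 12.5 CPM of KO exercise a lay within their range. Among them the exercised ones held 8.34 to 11.2 CPM. For neither gene did the Dbp class have one level across the conditions.

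The class difference was not called as different between genotypes for any gene. The interaction of class with genotype called 0 of 13885 genes (0%) with edgeR, DESeq2 and limma-voom alike, with 386 genes at an unadjusted p under 0.05 in edgeR. Fitted alone, the 6 WT libraries called 6 genes and the 6 KO libraries 14, and Nr1d2 was called in each. For Cry1 the difference was -0.64 in WT (adjusted p = 0.161) and -1.15 in KO (0.0146), and for Arntl -1.70 and -1.64 (0.475 and 0.438).

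The labelled conditions also touched some clock genes once the Dbp class was in the fit. Exercise called 772 genes (5.56%), 243 higher (1.75%) and 529 lower (3.81%), against 322 without the class term, of which 319 were shared. For exercise, 5 of 30 clock genes were called. Nfil3 was higher by 1.86 ± 0.24 (edgeR adjusted p = 0.0108), at 47.4 to 231 CPM in exercised and 11.5 to 77.0 CPM in sedentary libraries. Per1, which also responds to hormones and stress, was higher by 1.87 ± 0.35 (0.0271), Ciart by 2.04 ± 0.33 (0.0156) and Usp2 by 0.87 ± 0.17 (0.0239), and Timeless, a replication-fork protein, was lower by 0.54 (log2 difference -0.54 ± 0.13, 0.0326). None of these 5 calls held without the columns that carry 2 animal numbers (adjusted p = 0.158 for Ciart, 0.0800 for Nfil3 and 0.123 for Per1), and there the exercise count was 34. The differences themselves were 1.48 for Ciart, 1.62 for Nfil3, 2.28 for Per1, 0.67 for Usp2 and -0.60 for Timeless in that fit of 10 libraries. The knockout called 6 genes (0.0432%; 0.036% higher and 0.0072% lower) with the class term, none of them a clock gene.

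**Figure D3:**
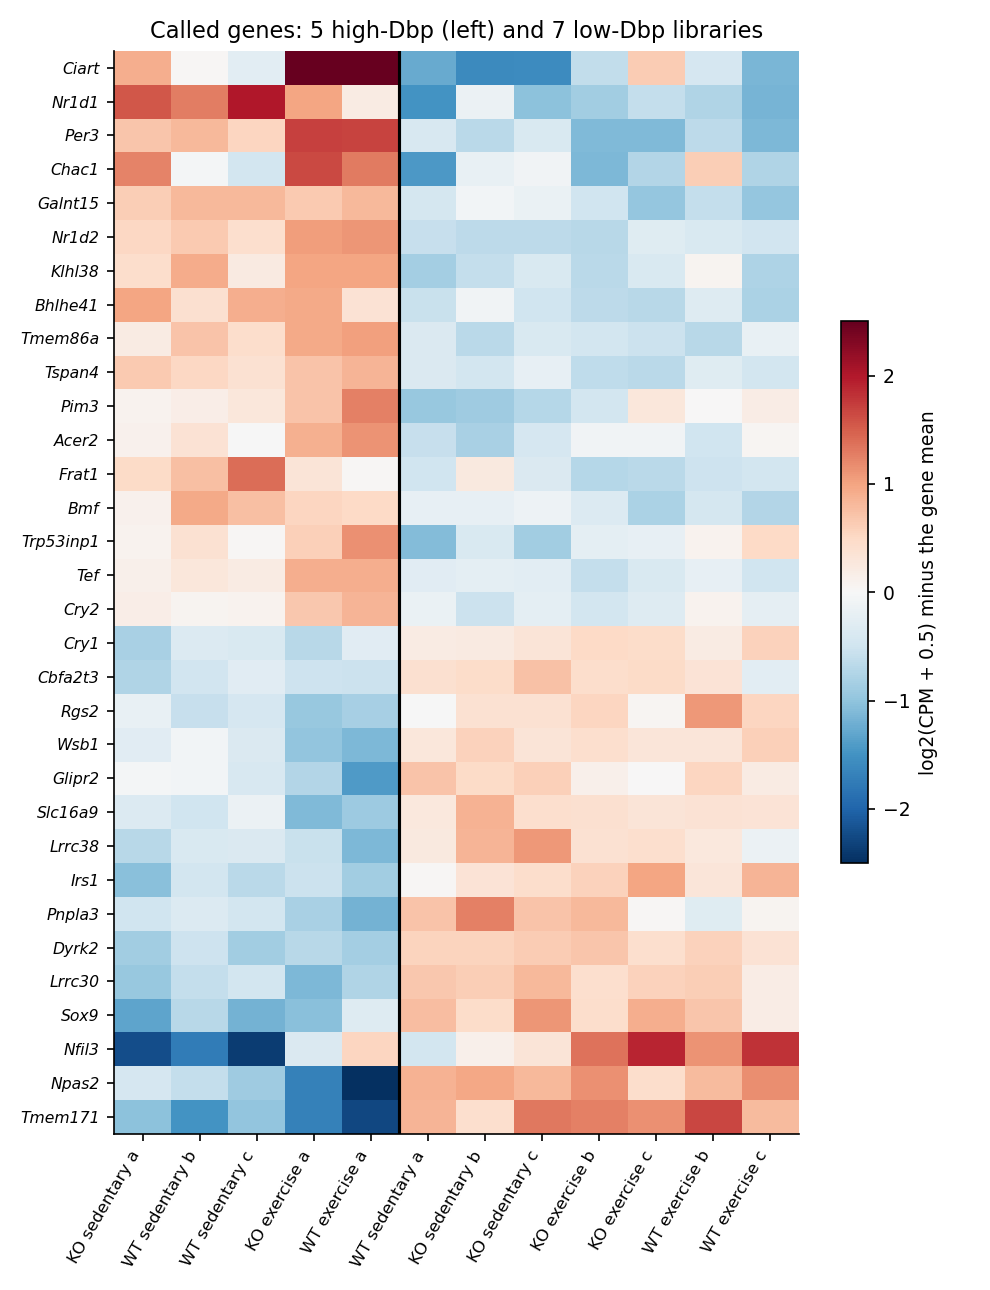
Level of 32 called genes that are clock genes or among the 15 largest rises or falls, as log2(CPM + 0.5) minus the gene's mean over the 12 libraries. The 5 high-Dbp libraries stand left of the black line and the 7 low-Dbp libraries right of it; Dyrk2 and Lrrc30 are even within each class, and Nfil3 is lowest in the 3 sedentary high libraries.

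Outside the clock list, the 15 largest rises included the following. Chac1, a glutathione-degrading enzyme of the amino acid stress response, rose by 1.73 ± 0.29 (edgeR adjusted p = 0.0183), at 4.62 to 21.5 CPM against 2.11 to 10.3. Pim3, a serine/threonine kinase, rose by 1.01 ± 0.12 (0.0039), and Acer2, a ceramidase of the Golgi, by 1.00 ± 0.14 (0.0053). Klhl38, a kelch protein found in muscle, Frat1, a GSK3-binding protein, Bmf, a pro-apoptotic BH3 protein, and Trp53inp1, a p53-inducible autophagy protein, also rose. For Klhl38 and Bmf the whole classes did not overlap; separation within each group was part of how these genes were chosen. Chac1 was lost without any of 4 libraries and Frat1 without any of 9.

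The largest fall was Tmem171, a membrane protein, at 0.483 to 1.88 CPM in the high and 5.85 to 14.7 CPM in the low libraries (-2.91 ± 0.36, edgeR adjusted p = 0.0041). Sox9, a transcription factor known from cartilage and tendon, was 10.2 to 20.8 CPM against 29.8 to 56.8 CPM (-1.60 ± 0.24, 0.0153). Lrrc38, an accessory subunit of the BK potassium channel, Slc16a9, a transporter of the monocarboxylate family, Wsb1, a ubiquitin ligase adaptor, Cbfa2t3, a transcriptional corepressor, Glipr2 and Rgs2, a regulator of G protein signalling, were also called lower. All 8 were below the whole low range in every high library, where 0.979% of all tested genes were. Separation within each group was part of how the largest falls were chosen. Their lack of overlap largely follows from that choice and is a description only. Adamts4 was also called lower (-2.39, edgeR adjusted p = 0.0441), but its classes overlapped, at 0.080 to 3.21 CPM in the high and 2.88 to 10.9 CPM in the low libraries. The Rgs2 call was lost without any of 11 libraries.

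Of 20 genes listed as clock-controlled outputs, 3 were called higher and none lower, beside 0.799% higher over all genes: Tspan4, Klf9 and Coq10b. Klf9 was 234, 188 and 206 CPM in WT sedentary b, WT sedentary c and KO sedentary a and 336 and 291 CPM in WT exercise a and KO exercise a, against 130 to 193 CPM in the low libraries (0.76 ± 0.090, edgeR adjusted p = 0.0024). The ranges met, in WT sedentary c and WT exercise c, but the classes were separate within each group. Coq10b, a coenzyme Q binding protein, rose by 0.81 ± 0.15 (0.0229), a call lost without any of 4 libraries. The median of the list was 0.19, beside -0.0029 for all tested genes. Nampt, the NAD-synthesis enzyme often named as a clock output, differed by 0.03 (adjusted p = 0.89), and Myod1, the muscle transcription factor, by -0.54 (0.16). In the exercised fit the list held 6 calls, where 2.25% of all tested genes were called. The sedentary fit held 2, where 0.759% of all were called.

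Over all tested genes 0.799% were called higher and 0.727% lower, and metabolic lists are read beside these shares. Of 18 genes of glucose handling, 2 rose: Pdp1, the phosphatase that activates pyruvate dehydrogenase (63.5 to 82.9 against 35.9 to 57.8 CPM, 0.64 ± 0.12, edgeR adjusted p = 0.0217), and Pfkfb1, a regulator of glycolysis (36.7 to 50.8 against 22.5 to 34.4 CPM, 0.59 ± 0.10, 0.0158), whose exons overlap Apex2. The Pdp1 call was lost without any of 4 libraries and the Pfkfb1 call without WT exercise a or KO exercise a. In the exercised fit, which called 2.25% of all its tested genes, 4 glucose genes were called. These were Pdk4, which was lower (-2.43, edgeR adjusted p = 0.0030), and Pfkfb1, Pfkfb3 and Tbc1d1, which were higher. Of 25 genes of fatty acid uptake and oxidation only Pnpla2, the adipose triglyceride lipase, rose (0.37 ± 0.074, 0.0317), and its call was lost without any of 8 libraries. Of 14 lipogenic and insulin-responsive genes, 2 fell. Irs1, the insulin receptor adaptor, was 51.0 to 76.3 CPM in the high and 108 to 210 CPM in the low libraries (-1.22 ± 0.16, 0.0081). Pnpla3, a lipid droplet protein, was 5.23 to 9.81 against 10.1 to 30.8 CPM (-1.30 ± 0.17, 0.0041), with its highest level in KO sedentary b.

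In the glucocorticoid list 1 of 15 genes was called, where 1.53% of all tested genes were. It was the receptor Nr3c1 itself, which was 101 to 123 CPM in the high and 152 to 177 CPM in the low libraries (-0.53 ± 0.057, edgeR adjusted p = 0.0014). The other 14 were not called in the joint fit and overlapped between classes, with positive values and a list median of 0.52. Cebpd, at 12.8 to 116 against 9.94 to 64.2 CPM, is an example (0.99, 0.19). The list held 3 calls in the exercised fit, Nr3c1 among them, where 2.25% of all tested genes were called. The sedentary fit called Nr3c1 alone, where 0.759% of all were called, and the interaction with exercise 1 member, beside 0.598%. Among 16 heat shock and cold-inducible RNA-binding genes 2 were called, beside the same 1.53%: Cirbp, a cold-inducible RNA-binding protein, rose (39.4 to 52.6 against 26.8 to 34.5 CPM, 0.58 ± 0.077, 0.0041) and the chaperone Dnaja1 fell (-0.59 ± 0.13, 0.0480), the latter lost without any of 10 libraries and with exons that overlap Smu1. The lists of 18 immediate early, 15 atrophy and autophagy and 11 exercise-inducible genes held no call in the joint fit. In the exercised fit they held 1, 3 and 2 calls in that order, where 2.25% of all tested genes were called. The sedentary fit held 1, 0 and 1, where 0.759% of all were called, and the interaction 0, 1 and 0, beside 0.598%.

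**Figure D4:**
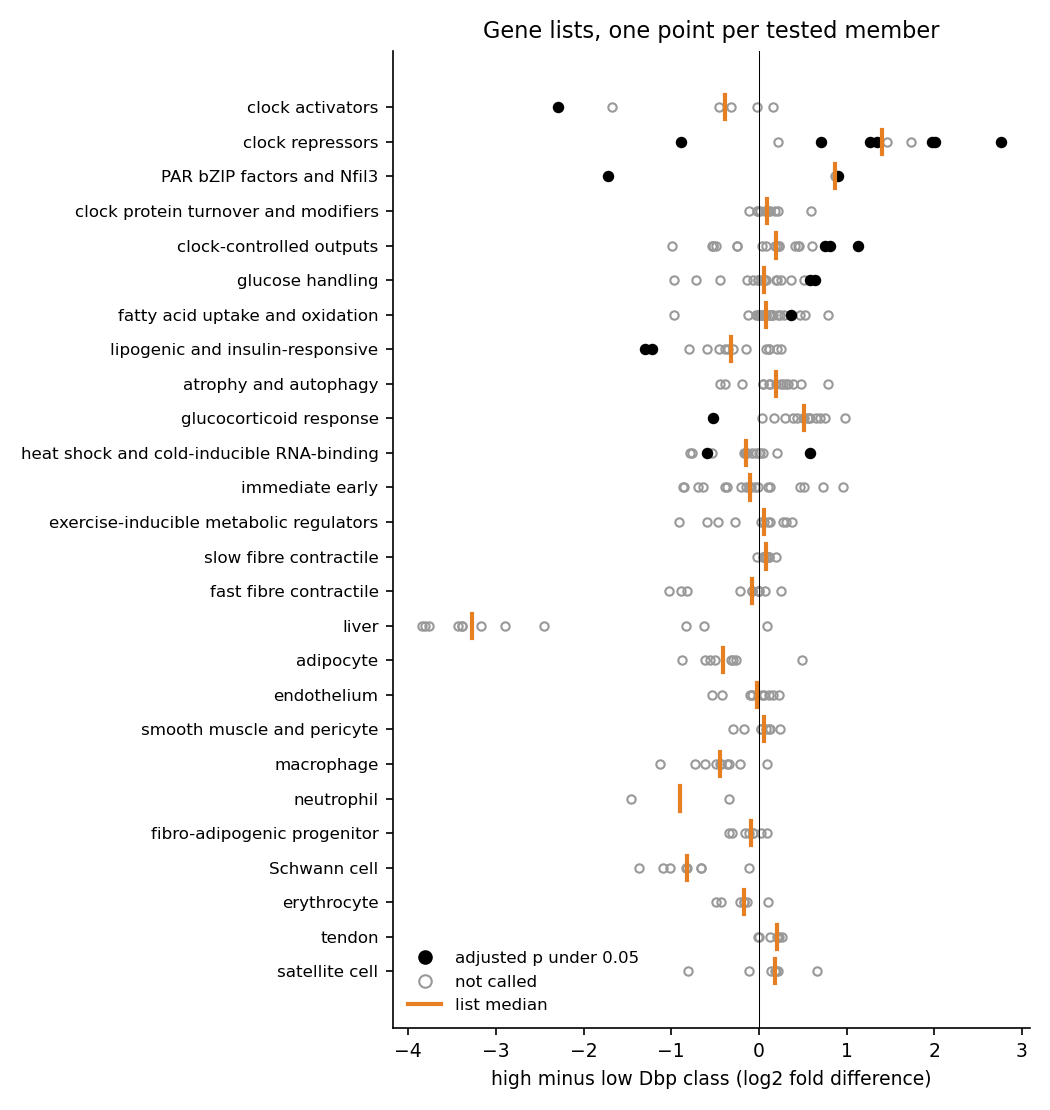
Class difference (high minus low Dbp, log2) of every tested member of each gene list, with called members filled and the list median in orange. The 3 lists of clock activators, repressors and D-box factors hold 10 called members. No cell type or fibre list holds one in this contrast, where 1.53% of all tested genes were called.

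Markers of fibre type and of other cells were not called in the joint class contrast, at 0 of 107 tested genes. Over all tested genes 1.53% were called, so a list of this size could hold few calls in any case. No lymphocyte marker passed the filter on low counts. Beside the separate fits, the erythrocyte gene Hbb-bt was called lower in sedentary muscle (-1.15, edgeR adjusted p = 0.0408), Hbb-bt and Alas2 were called in the interaction with exercise (1.46 and 1.51), and the liver gene Ahsg was called lower in exercised muscle (-7.78, 0.0243). Erythrocyte markers had a median of -0.996 in sedentary and 0.42 in exercised muscle, and their part in the interaction was not tested. Slow fibre genes had a median difference of 0.08 and fast fibre genes of -0.08. Their levels still moved with single libraries: 11 of 12 liver markers were lower in the high class (median -3.28), with sums of 28.1 to 115 CPM in the high and 20.2 to 556 CPM in the low libraries, and Alb itself was listed at 0 in KO exercise a. All 8 Schwann cell markers had negative values (median -0.83), with sums of 195 to 271 against 211 to 1000 CPM, and 9 of 10 macrophage markers did (median -0.44), at 110 to 204 against 88.6 to 596 CPM. In whole muscle, fewer cells of a type and less RNA per cell cannot be told apart. The part of these markers in the class differences was not tested beyond the fit without the 3 libraries with high Alb given above.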

How the data were processed

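Gene counts per library were read from the authors' deposited table. Per the submitters' processing notes, reads were handled with STAR and featureCounts on mm10; versions and strand settings were not stated. The deposited counts are whole and not normalized. A further 12 normalized columns were not used here. Columns carry animal numbers that match no numbered label, so they were placed by group. Dbp CPM (count over column total) set the classes at 80. Counts were fitted with edgeR 4.0.16 (R 4.3.3): TMM scaling, filterByExpr with a minimum count of 10, robust quasi-likelihood with 4 groups and class as terms, Benjamini-Hochberg over 13885 genes, Dbp left out, threshold 0.05. The script was tested on simulated data. DESeq2 1.42.0 and limma 3.58.1 (voom), other scaling, no filter and leaving out libraries were alternatives. Named genes were the clock list, called members of other lists, the 15 largest called rises and falls separated within every group with a mean of at least 5 CPM, genes called in both conditions, and at most 5 genes per interaction by p; Nampt, Myod1, Cebpd, Pdk4, Pfkfb3, Tbc1d1, Hbb-bt, Alas2 and Ahsg were named after their values were seen. Members and lists were chosen with earlier results of these data known. Total counts were 13329547 to 15480960. A few named genes are not reported here.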

Additional observations from a re-analysis of the deposited data

Results flagged for a closer look

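The class difference was tested for a change between sedentary and exercised muscle, and the following genes passed (edgeR, Benjamini-Hochberg over all genes); each value is the class difference in exercised minus that in sedentary muscle on the log2 scale. Among clock genes, Arntl had -2.02 (adjusted p = 0.0032), Per3 1.57 (0.0073), Per2 2.30 (0.0399), Hlf 1.29 (0.0163) and Tef 0.88 (0.0211). Of 12 fits that each left out a library, Arntl was called in 12, Per3 in 10, Hlf in 8, Tef in 7 and Per2 in 3.

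Outside the clock, Slc41a3, a magnesium transporter, had -1.39 (adjusted p = 0.0055), with class differences of 0.51 in sedentary and -0.90 in exercised muscle. Manf, a secreted protein of the endoplasmic reticulum, had -1.62 (0.0060), with 0.38 and -1.26, and its exons overlap Rbm15b. Fmo2, a flavin monooxygenase, had 1.26 (0.0072), with 0.37 and 1.61. Slc41a3 and Manf were called in 11 of the 12 fits and Fmo2 in 10.

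The genes with opposite called directions had values of -3.34 for Armc2 (adjusted p = 0.0073), 1.83 for Cntfr (0.0073), 1.123 for Rell1 (0.0059) and -2.11 for Slc25a22 (0.0102). The exercised high libraries are the columns with 2 animal numbers, so this feature and exercise cannot be told apart in these differences.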

How the results depend on the processing

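None of the 56 genes whose class difference was refitted under the alternatives changed direction. Of these genes, 48 had been called in the contrast of all 12 libraries, and the alternatives reuse the same libraries, so a reversal was unlikely from the start. Armc2, Slc25a22, Cntfr and Rell1, with opposite signs in sedentary and exercised muscle, were not among them. The class contrast called 212 genes, and within 1.5 times of that with DESeq2 size factors (214), no low-count filter (237), limma-voom (228), Dbp as a continuous term (291), no group covariate (201) and without the library highest in Myh4 (200). DESeq2 called 494, WT libraries alone 6, KO libraries alone 14, and the fit without high-Alb libraries 94. Leaving out 1 library gave 45 (without KO exercise a) to 280 (without KO sedentary c). Without the columns with 2 animal numbers, an alternative chosen after seeing the data, 77 were called, 38 of them shared with the 212. The sedentary fit called 165 without the filter, 343 with DESeq2, 51 with limma-voom and 0 to 114 without 1 library. The exercised fit called 508 without the filter, 474 with DESeq2, and 25 to 524 without 1 library. The interaction with exercise called 262 with DESeq2, 2 without the high-Alb libraries (added after seeing the data) and 1 to 115 without 1 library. The exercise contrast called 1470 with DESeq2, 322 without the class term, 34 without the columns with 2 animal numbers, 356 without the high-Alb libraries and 117 to 1177 without 1 library, where the lowest left out WT exercise a. The knockout contrast called 39 with DESeq2 and 5 to 9 without 1 library. The cause was not tested for any of these. With 12 libraries, a difference that missed the threshold is not shown to be absent. No paired analysis was possible because the count columns carry animal numbers that match no numbered sample.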
